A study of Mus musculus with 22 samples.

Results

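Purine synthesis was described through 10 genes of the 55385 in the count table. They are Gart, Ppat, Pfas, Paics, Adsl and Atic, which encode the enzymes of de novo synthesis, Impdh1, Impdh2 and Adss, which encode enzymes of the branches to GMP and AMP, and Hprt, which encodes a salvage enzyme. They were taken by name for their place in the pathway, and Gart was of interest as the member carried on the Ts66Yah minichromosome. RNA-Seq libraries came from 11 male mice, each of which gave a hippocampus (HIP) and an entorhinal cortex (EC) library, 22 in all. The groups were 5 wt HIP, 6 Ts66Yah HIP, 5 wt EC and 6 Ts66Yah EC libraries. The mice were 5 to 6 months of age on an F1B6C3B background, and the wt mice were control littermates of the Ts66Yah mice. Which of the mice shared a litter is not given in the labels. Wt mice had the normal chromosome complement. Ts66Yah mice carried in addition a freely segregating minichromosome with distal Mmu16 from Mir155 to the telomere, from which the centromeric Mmu17 part of the Ts65Dn minichromosome had been deleted by CRISPR/Cas9. The line descends from 1 founder, so that the effect of the extra segment cannot be told apart from that of other variants linked to this chromosome.

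In de novo synthesis, a purine ring is built step by step on the ribose phosphate PRPP until inosine monophosphate (IMP) is reached, and IMP is then turned into AMP or GMP. Salvage enzymes such as Hprt rebuild nucleotides from free bases at a lower energy cost, and the brain is known for its reliance on salvage. GART lies on human chromosome Hsa21, which made purine synthesis a long-standing question in Down syndrome research. The comparisons below address whether the third copy of Gart is seen in its RNA, whether the other enzymes of the pathway differ with it, and how the pathway differs between HIP and EC.

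Gart (ENSMUSG00000022962) is located on chromosome 16 at 91621186-91646952 of GRCm38, on the minus strand, 6907046 bases distal of the start of Mir155 and therefore inside the triplicated segment. None of the other 9 members is in it. Ppat (ENSMUSG00000029246, chromosome 5, 76913249-76951578) and Paics (ENSMUSG00000029247, chromosome 5, 76951307-76967509) are arranged head to head with starts 271 bases apart and overlapping first exons. Gart is likewise divergent from Son, whose start is 554 bases away. The remaining members are on other chromosomes: Pfas on 11, Adsl on 15, Atic and Adss both on 1, Impdh1 on 6, Impdh2 on 9 and Hprt on X.

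A RefSeq promoter window (GRCm38.p6, 250 bases before to 50 after a start) was matched for 9 of the 10 members, with a pair of windows for Impdh1. Sequences upstream of the start, without any annotated exon, are printed for Gart, the only member that changed with genotype, for Atic and Adsl, a de novo gene that differed between the regions and one that did not pass the test, and for Hprt, the member with the highest level. They run 5′ to 3′ in the direction of the gene. Capitals mark a GC box (GGGCGG) or a CCAAT box (CCAAT) on either strand, and GC boxes that overlap each other form 1 run.
Gart, chr16:91646973-91647222, minus strand: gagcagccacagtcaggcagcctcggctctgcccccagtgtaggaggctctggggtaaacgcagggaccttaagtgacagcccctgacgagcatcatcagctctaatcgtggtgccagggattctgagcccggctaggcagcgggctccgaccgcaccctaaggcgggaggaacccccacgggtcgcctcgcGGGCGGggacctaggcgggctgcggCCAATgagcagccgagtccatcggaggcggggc
Atic, chr1:71556906-71557149, plus strand: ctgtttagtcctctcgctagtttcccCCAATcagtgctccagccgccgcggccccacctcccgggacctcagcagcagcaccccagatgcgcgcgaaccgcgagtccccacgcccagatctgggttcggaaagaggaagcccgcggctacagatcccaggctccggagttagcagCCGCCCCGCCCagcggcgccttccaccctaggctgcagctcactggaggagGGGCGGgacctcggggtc
Adsl, chr15:80948240-80948489, plus strand: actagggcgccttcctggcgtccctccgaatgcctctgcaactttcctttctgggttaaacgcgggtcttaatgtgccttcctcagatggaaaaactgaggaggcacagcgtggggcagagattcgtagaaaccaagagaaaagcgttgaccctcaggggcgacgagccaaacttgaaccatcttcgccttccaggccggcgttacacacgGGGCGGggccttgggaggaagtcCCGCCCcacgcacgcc
Hprt, chrX:52987828-52988077, plus strand: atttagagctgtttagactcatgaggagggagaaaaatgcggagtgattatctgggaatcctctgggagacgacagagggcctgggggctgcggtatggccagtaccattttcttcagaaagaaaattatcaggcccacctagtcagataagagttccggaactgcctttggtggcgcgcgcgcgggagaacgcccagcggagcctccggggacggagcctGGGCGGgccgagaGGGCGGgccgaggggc

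The Gart stretch, which lies between the starts of Gart and Son, held 1 GC box and 1 CCAAT box. Over the full windows, a GC box was found in all 9 matched members, against 38.2% of 27025 genes with a RefSeq window (35.7% of all 32851 windows of the same length). A CCAAT box was found in 4 members, against 41.1% of genes (37.4% of windows), and an E-box (CACGTG) in 3 members (Paics, Atic and Impdh2), against 8.09% of genes (7.15% of windows). The NRF1 core motif was found in 0 members, against 1.07% of genes (0.971% of windows). Both strands were searched, and matched letters are a description of these windows and not evidence of binding.

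Libraries held 25900479 to 50105778 counts, and the members had between 288 and 7353 raw counts per library. Levels are given as CPM, the counts of a gene per 1000000 counts of its library after TMM scaling, and as CPM per kb of exon where genes are compared with each other. Markers fitted the dissection: 5 of 5 hippocampal markers were lower in EC than in HIP in either genotype and 4 of 5 cortical markers were higher. Of 42 markers of regions and cell types, 0 passed the threshold between genotypes with edgeR in HIP (41 tested, 4 at an unadjusted p under 0.05), in EC (40 tested, 3) or in the sum of both regions (42 tested, 4). DESeq2 called 1 of them in HIP, the cortical marker Fezf2 (-0.37 with edgeR, adjusted p = 0.0729), and limma voom 0. The wt HIP library of replicate 4 stood apart in choroid plexus markers, with a summed level of 109 CPM against 761 to 3265 CPM in the other HIP libraries, and no call on a member in the comparisons that hold this library changed when it was left out. Because these are bulk tissue samples, fewer cells of a type and less RNA per cell cannot be told apart.

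Gart was higher in Ts66Yah than in wt in both regions, by close to 1.5-fold. Gart encodes a trifunctional enzyme of early de novo synthesis, with glycinamide ribonucleotide synthetase, formyltransferase and aminoimidazole ribonucleotide synthetase activities. In wt HIP, Gart was measured at 29.5, 26.7, 31.6, 29.6 and 28.3 CPM. The 6 Ts66Yah HIP libraries ranged from 41.0 to 46.3 CPM, with a median of 43.8 CPM. The highest wt library was thus well below the lowest Ts66Yah library. The mean was 43.7 ± 1.90 CPM (SD, n = 6) in Ts66Yah and 29.2 ± 1.83 CPM (SD, n = 5) in wt, and the log2 fold change was 0.59 (SE 0.053, 95% interval 0.47 to 0.70, adjusted p = 3.41e-05).

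In EC, the wt libraries had 30.5, 35.2, 33.1, 31.8 and 27.1 CPM of Gart. The Ts66Yah EC libraries ranged from 45.6 to 49.1 CPM, with a median of 46.8 CPM. Again no wt library reached the Ts66Yah range, and the wt values were more spread (SD 3.06 CPM around 31.5, n = 5) than the Ts66Yah values (SD 1.31 CPM around 47.1, n = 6). The log2 fold change in EC was 0.58 (SE 0.067, interval 0.43 to 0.72, adjusted p = 0.000804). With the counts of both regions summed per animal it was 0.58 (SE 0.045, adjusted p = 1.10e-05). The difference between the genotype effects of the regions was -0.0076 on the log2 scale (interval -0.18 to 0.16, adjusted p = 1), so that no difference between HIP and EC was detectable.

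**Figure D1:**
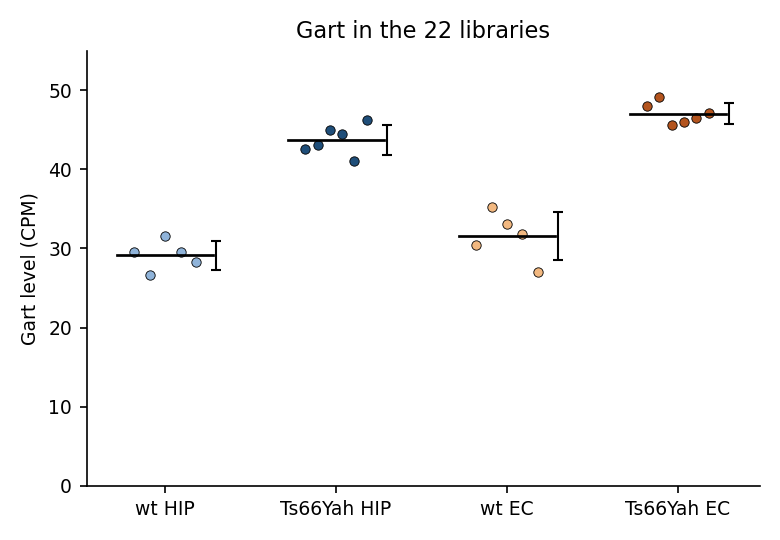
Gart level in CPM in each of the 22 libraries, by group; points are libraries, the bar is the group mean and the bracket beside it is the SD. The 12 Ts66Yah values of HIP and EC sit between 41.0 and 49.1 CPM, above all wt values, which sit between 26.7 and 35.2 CPM.

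Tested against a 1.5-fold increase, the ratio of 3 copies to 2, Gart departed by 0.00023 on the log2 scale in HIP (interval -0.11 to 0.11, adjusted p = 0.997). In EC the departure was -0.0089 (interval -0.15 to 0.13, adjusted p = 0.944), and in the sum of both regions it was -0.00040 (adjusted p = 0.993). The intervals allow Gart to be up to 0.11 (HIP) or 0.15 (EC) below 1.5-fold on the log2 scale. These p-values were adjusted over the tested genes of the segment, since copy number is a property of the segment and not of the pathway.

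Within the triplicated segment Gart was near the middle of the order. In order of log2 fold change it was number 52 of 101 tested segment genes in HIP and number 45 of 93 in EC, and the medians of the segment were 0.59 and 0.57. Of the segment genes, 57.4% passed the threshold as higher in HIP, 48.4% in EC and 59.6% in the sum. Its neighbours were also higher: Tmem50b, a membrane protein gene, by 0.54 in HIP and 0.59 in EC, and Dnajc28, a member of the DnaJ family, by 0.62 and 0.56 on the log2 scale. Donson, a DNA replication factor, rose by 0.64 and 0.63. Son, the splicing cofactor that is divergent from Gart, rose by 0.58 in HIP (adjusted p = 0.000655), whereas its EC value of 0.38 did not pass the threshold (adjusted p = 0.0679). The difference between the regions was not detected for Son either, as 0 of 19074 genes passed the test of that difference with edgeR (388 or 2.03% at an unadjusted p under 0.05, and 0 with DESeq2). The antisense gene Gm15964 overlaps Gart. It had at most 28 counts in a library, against at least 784 for Gart. Because the strand setting of the counting is not given, these counts do not show how many reads the overlap affected.

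**Figure D2:**
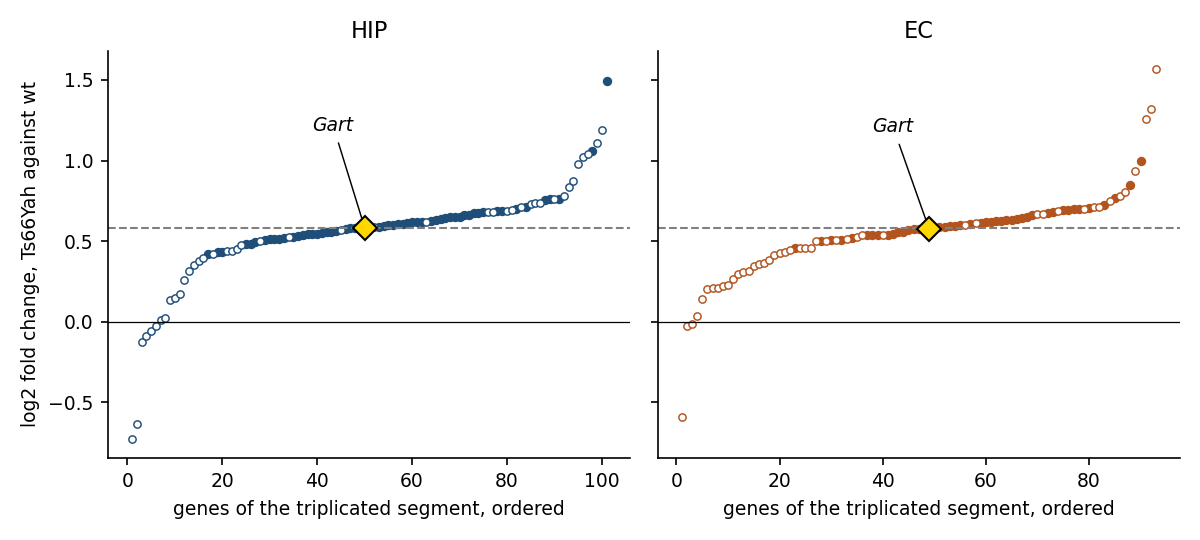
Log2 fold change of Ts66Yah against wt for each tested gene of the triplicated segment, in increasing order, in HIP (101 genes) and EC (93 genes); filled points have an adjusted p under 0.05, open points do not, and the dashed line marks 1.5-fold. Gart (diamond) sits in the middle of the order, on the dashed line, at 0.59 in HIP and 0.58 in EC.

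The genes with the profile most like that of Gart were also genes of the segment. Over the 22 libraries, the highest Pearson correlations of log2 CPM with Gart among 14963 genes of at least 1 CPM were those of Ifnar1 (0.97), App (0.96), Dyrk1a (0.96), Mrpl39 (0.95) and Vps26c (0.94). Ifnar1 encodes an interferon receptor chain, App the amyloid precursor protein and Dyrk1a a protein kinase. All of the first 20 genes in this order were in the segment, as were 39 of the first 50. For scale, 101 of the 18452 genes tested in HIP were in the segment. The genotype difference was left in the values, so genes raised with the segment rank high by construction. The correlation is a description, since all these points share the genotype groups and their libraries.

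None of the other 9 purine synthesis genes passed the threshold between Ts66Yah and wt in HIP, in EC or in the sum of both regions with edgeR, DESeq2 or limma voom. The count of members called higher was therefore 1 of 10, in a background of 0.439% of 18452 genes in HIP, 0.272% of 17658 in EC and 0.455% of 20233 in the sum (0.591%, 0.283% and 0.573% in either direction). Gart was also the only member whose groups did not overlap in CPM, as was the case for 1.87% of all genes in HIP and 0.957% in EC. The 9 genes had log2 fold changes of -0.11 to 0.08 in HIP and of -0.20 to 0.05 in EC, with 5 and 4 of them positive. Their medians were 0.0018 in HIP and -0.0065 in EC, beside 1.4e-05 and -0.0045 for all genes tested. The upper ends of their 95% intervals reached at most 1.15-fold in HIP, 1.16-fold in EC and 1.10-fold in the sum, so that all 9 intervals ended below a 1.5-fold increase. The lower ends reached 0.819-fold, 0.763-fold and 0.822-fold.

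**Figure D3:**
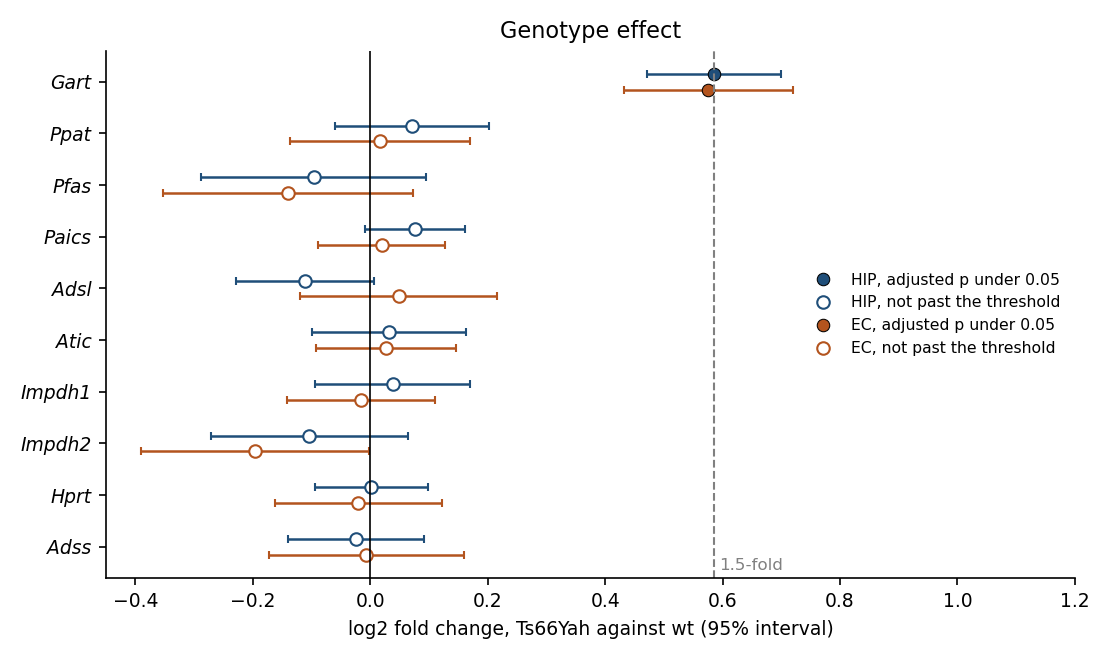
Log2 fold change of Ts66Yah against wt with its 95% interval for the 10 genes in HIP and EC; filled points have an adjusted p under 0.05, and the dashed line marks 1.5-fold. The Gart values of 0.59 and 0.58 stand alone at the dashed line, and the other values lie between -0.20 and 0.08.

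Among the de novo enzymes, Ppat, the amidotransferase of the committed step, had 16.2 ± 0.979 CPM in wt HIP and 17.0 ± 0.899 CPM in Ts66Yah HIP. Its log2 fold change was 0.07 (interval -0.06 to 0.20) in HIP and 0.02 (interval -0.14 to 0.17) in EC. Paics, the bifunctional carboxylase and synthetase of the middle of the pathway, came nearest to an increase, with 92.8 ± 3.32 CPM in wt HIP and 97.8 ± 3.13 CPM in Ts66Yah HIP. That difference of 0.08 (interval -0.01 to 0.16, unadjusted p = 0.077, adjusted p = 0.479) did not pass the threshold, and in EC it was 0.02. Pfas, the amidotransferase that acts after the formyltransferase step of Gart, was at 25.2 ± 2.41 and 23.5 ± 2.82 CPM in HIP, and its differences of -0.10 in HIP and -0.14 in EC were within the spread of the libraries.

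Adsl, the lyase that acts in both IMP synthesis and AMP synthesis, had the lowest value of the 9 in HIP, -0.11 (interval -0.23 to 0.01, adjusted p = 0.450), but 0.05 in EC. The difference between both effects was 0.16 (unadjusted p = 0.0836, adjusted p = 1). Atic, which closes the ring with its transformylase and cyclohydrolase activities, differed by 0.03 in HIP (interval -0.10 to 0.16) and by 0.03 in EC (interval -0.09 to 0.15). Leaving out 1 animal moved these values between 0.00023 (without wt replicate 5) and 0.068 (without wt replicate 3) in HIP and between 0.013 (without wt replicate 2) and 0.058 (without wt replicate 3) in EC.

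In the branches after IMP, Impdh1, an IMP dehydrogenase of the GMP branch, differed by 0.04 in HIP and -0.02 in EC. Adss, the adenylosuccinate synthetase of the AMP branch, differed by -0.02 and -0.0065. For Impdh2, the other IMP dehydrogenase, the wt EC libraries had 12.4, 12.5, 13.3, 15.01 and 14.2 CPM, and the Ts66Yah EC libraries ranged from 9.96 to 12.7 CPM with a median of 12.3 CPM. The groups overlapped, and the difference of -0.20 (interval -0.39 to -0.0027, unadjusted p = 0.0473) did not pass the threshold after adjustment (adjusted p = 0.797). In the sum of both regions it was -0.15 (unadjusted p = 0.0408, adjusted p = 0.465). It was the 1 gene of these 9 with an unadjusted p under 0.05 in EC and in the sum, and 0 had one in HIP, against 6.25%, 10.3% and 11.9% of all genes.

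The count of Impdh2 is uncertain, because the processed pseudogene Impdh2-ps on chromosome 8 matches it at 99.7% of 1545 bases. Impdh2-ps was itself counted at 9.18 ± 0.292 CPM in wt HIP and 9.08 ± 0.384 CPM in Ts66Yah HIP. In EC it had 9.03 ± 0.451 CPM in wt and 9.41 ± 0.699 CPM in Ts66Yah. Impdh2 had 14.3 ± 1.63 CPM in wt HIP and 13.3 ± 0.718 CPM in Ts66Yah HIP. Its EC levels were 13.5 ± 1.09 CPM in wt and 11.8 ± 1.18 CPM in Ts66Yah. With the counts of both added together, the difference between the genotypes shrank to -0.07 in HIP, -0.09 in EC and -0.08 in the sum (adjusted p = 0.625 in the sum). How reads that match both were assigned is not given in the sources used here.

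The salvage gene Hprt, whose product recycles hypoxanthine and guanine, had the same mean of 132 CPM in HIP of both genotypes (SD 6.18 in wt and 5.66 in Ts66Yah). Its log2 fold change was 0.0018 (interval -0.09 to 0.10) in HIP and -0.02 (interval -0.16 to 0.12) in EC.

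By its level, Gart took a larger share of the de novo transcripts in Ts66Yah. Of the summed CPM per kb of the 6 de novo genes, Gart made up 15.9% ± 0.626 (SD, n = 6) in HIP of Ts66Yah mice and 11.5% ± 0.548 (SD, n = 5) in that of wt mice. In EC these shares were 15.7% ± 0.622 and 11.2% ± 0.894. The shares did not overlap between genotypes: 10.6 to 12.0% against 15.4 to 16.9% in HIP, and 9.91 to 12.3% against 14.7 to 16.3% in EC. Paics remained the largest part, between 58.3% and 61.3% on average in the 4 groups. The ratio of Paics to Gart per kb was 5.23 ± 0.291 in wt HIP and 3.67 ± 0.194 in Ts66Yah HIP, and 5.51 ± 0.535 and 3.72 ± 0.219 in EC. Shares and ratio restate the Gart difference given above and are not a further test of it.

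Levels per kb spanned a wide range. In wt HIP, Hprt had the highest level with 103 ± 4.80 CPM per kb, followed by Paics with 29.6 ± 1.06, Adss with 16.5 ± 1.36, Impdh1 with 12.3 ± 0.438 and Gart with 5.67 ± 0.356. The remaining 5 genes lay between 3.18 (Pfas) and 4.64 CPM per kb (Impdh2), and of these the neighbours Ppat, Adsl, Atic and Pfas overlapped in their libraries. Gart overlapped with Impdh2, the next lower gene, in wt HIP, and with Ppat in wt EC. In Ts66Yah it was at 8.50 ± 0.369 CPM per kb in HIP and 9.15 ± 0.254 in EC and no longer overlapped with the next lower gene in either region. With Impdh2 counted without Impdh2-ps, Gart was number 5 of 10 in the order in each of the 4 groups. Impdh2-ps held 9.18 CPM in wt HIP beside 14.3 CPM for Impdh2, and no order with both counts added was made. Adss and Impdh1 did not overlap in HIP, with Adss higher, but overlapped in EC at 17.6 and 18.1 CPM per kb in wt. These levels depend on the length taken for a gene, here all its annotated exons together.

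**Figure D4:**
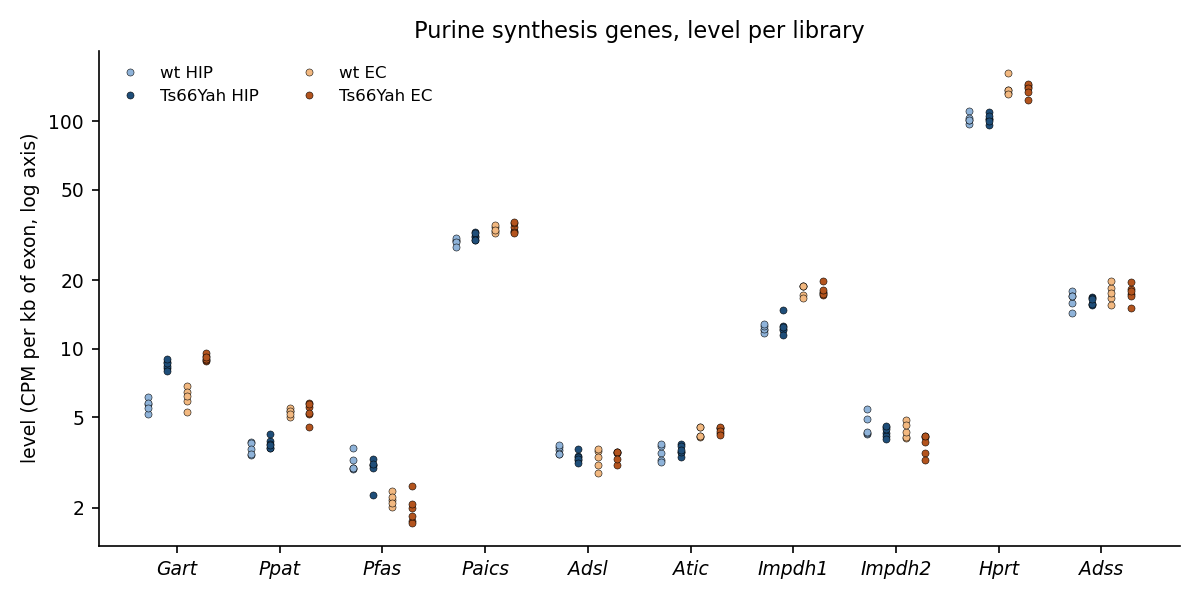
Level of the 10 genes in CPM per kb of exon, on a log axis; each point is 1 library, coloured by group. Hprt lies highest, near 103 CPM per kb in wt HIP, and Pfas lies lowest, near 1.98 CPM per kb in Ts66Yah EC; the Ts66Yah points stand above the wt points for Gart alone.

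Members other than Gart passed the threshold between the regions. The tests did not pair HIP and EC of the same animal, and a fit with the animal as a block was an alternative. That fit changed the call of Impdh2 in Ts66Yah and of no other member. In wt mice, Ppat, Impdh1, Hprt, Atic and Paics were higher in EC than in HIP and Pfas was lower. These 6 of 10 members passed the threshold, against 47.7% of 17935 genes (23.4% higher and 24.3% lower in EC), and the 6 were also those without overlap between the regions, against 35.4% of genes. In Ts66Yah mice the 6 called members had the same directions, against 54.0% of 18043 genes (26.4% higher and 27.5% lower), and 4 of them did not overlap, against 32.2%. Since a large part of all genes differed between the regions, these counts are not read as a result about purine synthesis, and the members are described by their values.

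Impdh1 showed the largest increase in wt. It was measured at 39.9, 38.5, 40.2, 41.4 and 42.2 CPM in wt HIP and at 56.9, 62.4, 62.3, 54.8 and 62.3 CPM in wt EC, with no overlap. The log2 fold change was 0.57 (SE 0.059, adjusted p = 5.83e-06) in wt and 0.51 (SE 0.061, adjusted p = 6.38e-06) in Ts66Yah. Its partner isozyme Impdh2 did not pass the threshold, with -0.08 (interval -0.28 to 0.12, adjusted p = 0.508) in wt and -0.18 (interval -0.34 to -0.02, adjusted p = 0.0528) in Ts66Yah. With the animal as a block, the Ts66Yah value of Impdh2 passed the threshold (-0.18, adjusted p = 0.0227), and with Impdh2-ps added it was -0.08 (adjusted p = 0.223). With Impdh2 counted without Impdh2-ps, the ratio of Impdh1 to Impdh2 per kb was 2.68 ± 0.341 in wt HIP and 4.16 ± 0.464 in wt EC. In Ts66Yah it was 2.92 ± 0.267 in HIP and 4.73 ± 0.530 in EC. The ratio with both counts added was not computed.

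Ppat was found at 15.1, 17.2, 17.1, 16.1 and 15.3 CPM in wt HIP and at 23.5, 22.2, 24.3, 23.5 and 22.8 CPM in wt EC. All EC libraries were above all HIP libraries in both genotypes, and the log2 fold change was 0.53 (SE 0.065, adjusted p = 2.43e-05) in wt and 0.47 (SE 0.064, adjusted p = 2.42e-05) in Ts66Yah. Paics, which shares the start region with Ppat, differed less. Its values were 94.4, 93.1, 96.4, 92.7 and 87.5 CPM in wt HIP and 104, 107, 102, 110 and 104 CPM in wt EC. This gave 0.18 (SE 0.050, adjusted p = 0.00859) in wt and 0.12 (SE 0.041, adjusted p = 0.0215) in Ts66Yah, where the regions overlapped. The Ts66Yah value fell below the threshold without replicate 3 (0.11, adjusted p = 0.0928) or without replicate 5 (0.09, adjusted p = 0.0724).

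Pfas went the other way. It had 29.2, 23.5, 23.8, 23.8 and 25.8 CPM in wt HIP and 18.9, 17.2, 17.7, 15.96 and 16.7 CPM in wt EC. It decreased by 0.54 on the log2 scale (SE 0.079, adjusted p = 0.000111) in wt and by 0.59 (SE 0.102, adjusted p = 0.000208) in Ts66Yah. In Ts66Yah the regions overlapped, with 18 to 26.0 CPM in HIP and 13.6 to 19.8 CPM in EC. Pfas thus differed between the regions in the direction opposite to that of Ppat and Paics.

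Hprt was at 126, 142, 130, 133 and 130 CPM in wt HIP and at 171, 177, 176, 209 and 170 CPM in wt EC, with no overlap. The increase was 0.45 (SE 0.066, adjusted p = 9.74e-05) in wt and 0.42 (SE 0.047, adjusted p = 3.19e-06) in Ts66Yah, or 1.37-fold and 1.34-fold. Hprt is often used as a reference gene for RT-qPCR, and in these libraries it differed between HIP and EC but not detectably between the genotypes. Atic had 27.96, 29.7, 30.6, 25.9 and 25.5 CPM in wt HIP and 32.8, 33.0, 36.4, 36.2 and 33.1 CPM in wt EC. It rose by 0.30 (SE 0.069, adjusted p = 0.00340) in wt and by 0.29 (SE 0.046, adjusted p = 0.000106) in Ts66Yah, again without overlap.

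Gart itself did not pass the threshold between the regions, with 0.12 (interval -0.05 to 0.28, adjusted p = 0.236) in wt, or 0.046 without wt replicate 2, and 0.10 (interval 0.0096 to 0.19, adjusted p = 0.0590) in Ts66Yah. The Ts66Yah value passed the threshold with DESeq2 (0.11, adjusted p = 0.0365). The values of Adsl were -0.13 in wt (-0.061 without wt replicate 4) and 0.03 in Ts66Yah, and those of Adss 0.10 and 0.11, none past the threshold. Adss in Ts66Yah passed it without replicate 5 (0.15, adjusted p = 0.0186).

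**Figure D5:**
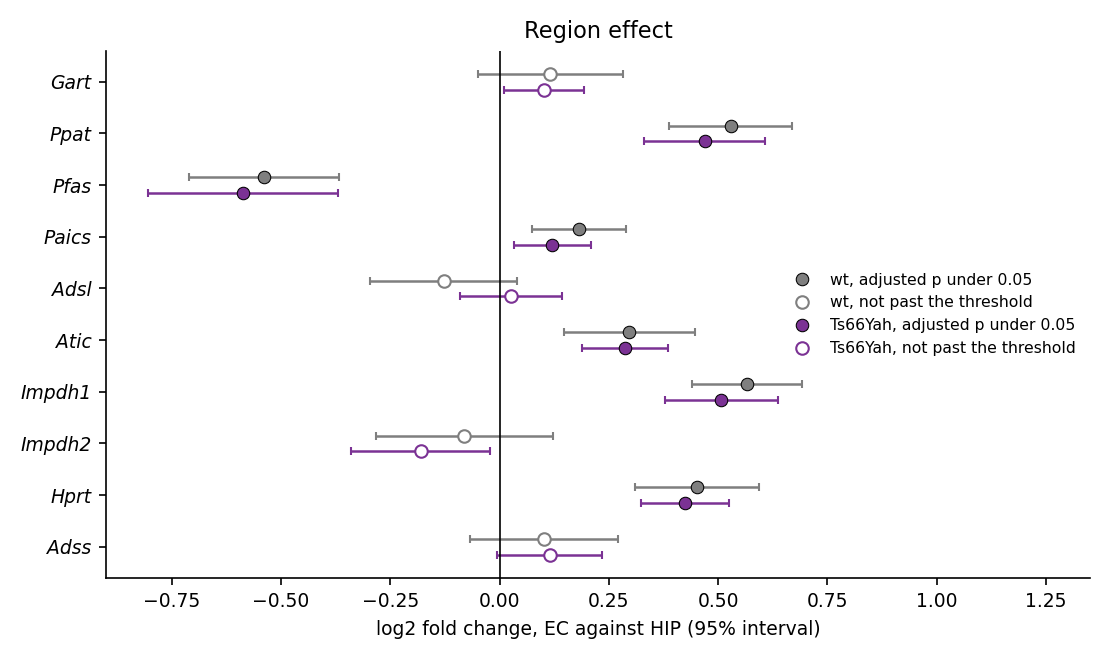
Log2 fold change of EC against HIP with its 95% interval for the 10 genes in wt and Ts66Yah; filled points have an adjusted p under 0.05. Ppat, Impdh1, Hprt, Atic and Paics lie to the right of 0 in both genotypes and Pfas lies to the left, at -0.54 and -0.59.

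Cell type markers moved with the region in the same libraries. All 4 oligodendrocyte markers were lower in EC, with a median of -2.08 on the log2 scale in wt and a summed level of 1160 to 2871 CPM in wt EC against 5944 to 8543 CPM in wt HIP. All 4 choroid plexus markers were lower in EC, at 9.47 to 41.3 CPM summed in wt EC against 109 to 3265 CPM in wt HIP. Of 5 neuronal markers, 3 were higher in EC, at 7862 to 8760 CPM against 6456 to 6970 CPM in wt. Microglial markers (3 of 4) and endothelial markers (2 of 3) were also higher in wt EC, with summed levels of 236 to 292 against 180 to 252 CPM and of 112 to 142 against 96.9 to 111 CPM. Astrocyte markers split, with Slc1a3 higher and Gfap lower. Of 4 meningeal markers, 2 were higher and 1 was lower in wt EC, and all 3 tested markers of dividing cells were lower. The defining markers of these lists were above 0 in each group, and their part in the region differences of the members was not tested.

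Beyond the members, 40 genes of the adjoining steps were followed in 4 lists, of which 39 could be tested. None of them passed the threshold between the genotypes in HIP, EC or the sum with edgeR, DESeq2 or limma voom, while 4, 2 and 5 of them had an unadjusted p under 0.05. Their log2 fold changes ranged from -0.21 to 0.26 in HIP and from -0.46 to 0.49 in EC. PRPP supply, which provides the starting compound, is represented by Prps1 (log2 fold change 0.01 in HIP and -0.05 in EC) and Prpsap2 (0.01 and -0.09), the 2 of highest level per kb among 4. Of the 14 folate one-carbon genes, Mthfd1, which makes the formyl folate used by Gart and Atic, had -0.04 and -0.04, and Aldh1l1, whose product oxidises formyl folate and so draws on the same pool, had -0.05 and -0.06. Among the nucleotide branch enzymes, Guk1 had -0.13 and -0.08 and Ak1 -0.03 and -0.06, and Ampd1 was too low to be tested. Among the genes of salvage and breakdown, Gda had 0.08 and 0.02 and Nt5c -0.21 and -0.07. The widest values of this list, named after they were seen, were in EC, with Nt5c1a at 0.49 (interval 0.12 to 0.87, unadjusted p = 0.0142, adjusted p = 0.643), Uox at 0.43 (interval 0.02 to 0.84, adjusted p = 0.783) and Ada at -0.46 (interval -1.12 to 0.19, adjusted p = 0.909). Uox and Ada had low counts, with means in EC of 0.664 and 0.510 CPM in wt and 0.893 and 0.368 CPM in Ts66Yah. The 5 genes of pyrimidine synthesis, the parallel pathway, also had 0 calls, with Ctps at -0.04 and -0.03 and Ctps2 at -0.02 and -0.09. The medians of the 5 lists lay between -0.02 and 0.04 in HIP and between -0.09 and 0.03 in EC.

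Between the regions, 20 of the 39 genes were called in wt (10 higher and 10 lower in EC) and 21 in Ts66Yah (10 higher and 11 lower), which is again near the 47.7% and 54.0% of all genes. Prps1, a PRPP synthetase, was higher in EC by 0.45 in wt and 0.39 in Ts66Yah, and Prpsap2 by 0.17 in wt. In the folate list, 7 of 14 genes were called in wt and 6 in Ts66Yah. Aldh1l1 (0.54 and 0.53) and Mthfd1l (0.43 and 0.42) were higher. Shmt1 (-1.16 and -0.80), Aldh1l2 (-0.72 and -0.67), Fpgs (-0.34 and -0.30) and Mthfd1 (-0.31 and -0.32) were lower in both genotypes and Mthfd2l in wt (-0.33).

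In the branches, Gmps, which completes GMP after the Impdh step, was higher in EC (0.48 in wt and 0.49 in Ts66Yah), as were Ak1 (0.50 and 0.47) and, in Ts66Yah, Guk1 (0.30). Ampd2, an AMP deaminase, was lower (-0.57 and -0.61), together with Gmpr (-0.47 and -0.60) and Adssl1 (-0.64 and -0.52). In salvage and breakdown, the guanine deaminase gene Gda had the largest difference, from 244 ± 22.3 CPM in wt HIP to 594 ± 80.8 CPM in wt EC (1.29, adjusted p = 3.33e-07) and by 1.23 in Ts66Yah. Dck (0.51 and 0.56) and Adk (0.21 and 0.17) were higher in both genotypes, Aprt in wt (0.33) and Nt5c in Ts66Yah (0.26). Nt5c1a (-1.26 and -0.85) and Dguok (-0.62 and -0.61) were lower in both, and Nt5e (-0.63) and Ada (-0.78, at 0.633 ± 0.155 and 0.368 ± 0.108 CPM) in Ts66Yah. In pyrimidine synthesis, Cad (0.43 and 0.30) and Ctps (0.21 and 0.22) were higher.

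Within the groups, some pairs of members varied together. After the group means had been subtracted, the Pearson correlation of log2 CPM over the 22 libraries was highest for Ppat with Adss (0.67), Atic with Impdh2 (0.67) and Paics with Hprt (0.59). It was lowest for Pfas with Hprt (-0.72). The head-to-head genes Ppat and Paics had -0.18, although they had 0.76 over all libraries with the group means left in. Gart had its highest value with Adsl (0.32) and its lowest with Impdh2 (-0.17). These are descriptions, since the 22 points come from 11 animals and share their library scaling.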

How the data were processed

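RNA-Seq was performed on HIP and EC of 5 wt and 6 Ts66Yah male mice (22 libraries). According to the study's methods, single-end reads were aligned with Hisat2 to GRCm38 and assigned with HTSeq-count to 55385 genes of Ensembl release 99. The strand setting and the handling of multi-mapping reads are not given in the sources used here, so overlapping genes are named. On the other strand, Gm15964 overlaps Gart, Paics and 2310040G07Rik overlap Ppat, and Gm25819 overlaps Pfas. Ndufaf3 likewise overlaps Impdh2, and Gm16585 overlaps Adss. On the same strand, Mir3062 overlaps Pfas and Gm6612 overlaps Adsl. The effect of these overlaps on the counts was not tested. The labels describe a poly(A) kit and the methods also name a ribosomal depletion kit. The authors deposited raw counts per gene, which were used as they are, at 25900479 to 50105778 per library; 0 rows lacked a gene. They also deposited DESeq2 and FCROS results of their own comparisons (fold changes, p-values and scores), which were not used. Groups came from the labels. GENCODE M21 (GRCm38) matched 55144 IDs and gave symbols, coordinates and exon lengths.

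Within each comparison, counts were filtered with filterByExpr, scaled by TMM and tested with the two-sided quasi-likelihood test of edgeR 4.0.16 (R 4.3.3), with genotype or region as the only term and no covariate; the difference between the genotype effects of the regions was a contrast over all 22 libraries. The Benjamini-Hochberg adjustment covered all genes tested in a comparison, with a threshold of 0.05. For the test against 1.5-fold, the log of 1.5 was added to the offsets of Ts66Yah libraries for genes of the segment. CPM used TMM over all libraries, and log2 CPM a prior count of 2. Intervals of 95% follow from the SE. The code was tested on simulated counts. HIP and EC of the same animal, known from the animal numbers in the labels, deviated together (r from 0.21 to 0.45 in 11 of 11 animals), so the animal was tried as a block. DESeq2 1.42.0, limma voom 3.58.1, other scalings and filters, blocks and leaving out each animal were alternatives. The sum of Impdh2 and Impdh2-ps was added after seeing the data. Near-identical copies were searched with blastn (at least 95% identity over 200 bases). All 10 members are described. Of the listed genes of other steps, those past the threshold are named, and otherwise the 2 with the highest level per kb. Members and lists were chosen with earlier results of these data known.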

Additional observations from a re-analysis of the deposited data

Results flagged for a closer look

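In 4 of 40 groups of a member's libraries, 1 library lay far from the others by Dixon's test, where chance gives about 1 in 20 groups. The lowest Pfas value in Ts66Yah HIP was 18 CPM in replicate 2, against 23.6 to 26.0 CPM in the others, and without it the genotype difference in HIP was -0.03 instead of -0.10. The same library had the highest Impdh1 value of its group, 48.9 CPM against 37.9 to 41.4 CPM, and without it the difference was -0.01 instead of 0.04. Impdh1 in Ts66Yah EC was highest in replicate 5 with 65.2 CPM, and without that animal its region difference in Ts66Yah was 0.45 instead of 0.51. Hprt in wt EC was highest in replicate 4 with 209 CPM, against 170 to 177 CPM in the others, and without that animal its region difference in wt was 0.40 instead of 0.45. None of these libraries changed a call on the gene in which it stood apart.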

How the results depend on the processing

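Gart was called in HIP, EC and the sum under every alternative run, with values of 0.56 to 0.62 in HIP, 0.53 to 0.62 in EC and 0.55 to 0.61 in the sum, and 0 other members were called. The departure of Gart from 1.5-fold passed the threshold under none of those run. Replicate numbers shared by wt and Ts66Yah are not stated to mark a common litter or batch (r from -0.0070 to 0.18 between same-numbered libraries), and with the replicate block Gart was 0.57 in HIP and 0.58 in EC (adjusted p = 0.00245 and 0.0142). Between regions, 6 members were called in wt throughout and 5 to 7 in Ts66Yah: Gart joined with DESeq2, Impdh2 with limma voom (adjusted p = 0.0468) and with the animal as a block, which changed no other member's call, Adss joined and Paics dropped out as given above. Further values that never passed the threshold moved by over 1.5 times when 1 animal was left out, and some near 0 changed sign. With the replicate block, Ppat in EC was -0.0053, Impdh1 in the sum 0.0036 and the departure of Gart from 1.5-fold in HIP -0.015. With a block for the range of animal numbers (wt replicate 1 left out), Hprt in HIP was -0.021 and Adss in EC 0.013. Leaving out each animal in turn gave these ranges on the log2 scale: in HIP, Hprt -0.016 to 0.030, Adss -0.069 to 0.0092, Impdh1 -0.014 to 0.063; in EC, Adss -0.048 to 0.047, Ppat -0.0060 to 0.060, Impdh1 -0.044 to 0.0091, Hprt -0.043 to 0.044; in the sum, Impdh1 -0.027 to 0.014, Hprt -0.045 to 0.017, Adss -0.064 to 0.0096; in the difference of EC against HIP, Gart -0.047 to 0.070, Adss -0.028 to 0.053, Atic -0.038 to 0.043, Hprt -0.052 to 0.036, Pfas -0.12 to 0.0074, Impdh1 -0.11 to 0.0057; for the departure of Gart from 1.5-fold, -0.030 to 0.033 in HIP, -0.060 to 0.033 in EC and -0.030 to 0.024 in the sum. The cause of these changes was not tested. Over all genes, 109 were called in HIP, against 370 with DESeq2, 61 with the replicate block and 68 with the range block. In EC 50 were called, against 109 with DESeq2 and 79 with all libraries in 1 fit, and in the sum 116, against 349 with DESeq2 and 67 with the replicate block. With 5 and 6 animals per group, differences within the intervals may have been missed. An interval without 0 did not ensure a call after adjustment, as for Impdh2 in EC. In the simulated counts, 95% of changes by 1.5-fold were recovered in HIP, 83% in EC and 96.5% in the sum. Smaller changes were not simulated.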
